A study of Homo sapiens with 12 samples.

Results

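The report describes what moved between the first and the second day on entinostat in HD-MB03 cells. The 6 arrays of entinostat-treated cells, of 12 in the series, were chosen by their labels: 3 arrays after 48 h were compared with 3 after 24 h. HD-MB03 is a cell line of MYC-amplified medulloblastoma, grown in RPMI medium with 10% FCS. Entinostat, which the sample names call MS275, was given at 1 µM. The 6 arrays of cells in DMSO, the solvent, at the same 24 h and 48 h give the change that comes with culture time; their treatment field reads "untreated". Each of the 4 groups has 3 biological replicates, each on its own Affymetrix U133 Plus 2.0 array, and all of them are of this single line.

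Histone deacetylases remove acetyl groups from histone tails and from other proteins, and histones that keep them are found at active genes. Entinostat inhibits the class I enzymes, which sit in corepressor complexes in the nucleus. Inhibitors of this class are known to slow the division of tumour cells and to raise genes that the cells otherwise keep low, among them neuronal genes in tumours of neural origin. The comparison of the later with the earlier time asks which of these states still moves once the drug has acted for a day. A gene's level is given below as intensity, the linear brightness of a probe set, and a change as the log2 fold change of 48 h over 24 h, with its standard error (SE).

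Arrays of the same group and time were close to each other. The log2 values of replicates in entinostat correlated with r between 0.993 and 0.995 across probe sets, and those of arrays from different times with r between 0.989 and 0.991. Of the 12 markers of Group 3 medulloblastoma, the type of the line, 7 had a mean log2 intensity of at least 7. The summed intensity of all 12 was 19530 to 20992 at 24 h and 23453 to 24071 at 48 h. MYC, the amplified gene, is among the 12 and made up the largest part of the sum. None of 8 leukocyte markers and 1 of 10 fibroblast markers reached a mean log2 of 7. The sums of these lists were 534 to 544 and 905 to 927 at 24 h, and 530 to 546 and 929 to 979 at 48 h. In the 4 entinostat and DMSO groups alike, RNA from fewer cells of a kind and less RNA per cell cannot be told apart.

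The second day on entinostat changed many genes, by small amounts. Of 19775 genes, 2036 (10.3% of those tested) passed an adjusted p of 0.05 in limma's moderated test with Benjamini-Hochberg adjustment; 783 of these rose (3.96%) and 1253 fell (6.34%). The same interval in DMSO gave 91 genes (0.46%), 43 higher (0.217%) and 48 lower (0.243%). This DMSO count was unstable: it ranged from 0 without DMSO 48 h replicate 3 to 166 without DMSO 24 h replicate 3, and was 7 with 30 subtracted from every intensity, 259 with dim probe sets left out and 156 with the replicate number as a block. The typical size of the change, as the median of the absolute log2 values, was 0.36 for the 2036 genes in entinostat and 0.10 for the same genes in DMSO. The genes were picked by their entinostat shift, which favours a larger value there, so these medians do not compare the intervals. A change of at least 0.5 on the log2 scale was reached by 184 of the genes that rose and 229 of those that fell, and a change of at least 1 by 16 and 10. The 3 arrays of 48 h lay wholly on 1 side of those of 24 h in 2031 of the 2036 genes, which a call from the same arrays favours. Over all genes the arrays of the times did not overlap in 28.6% with entinostat and in 19.3% with DMSO. Among all 54613 probe sets 3926 passed (7.19%), of which 1809 rose (3.31%) and 2117 fell (3.88%). Of 1305 called genes with several probe sets, 471 had another one called the same way and 8 one called the other way, so many calls rest on a single probe set. Without entinostat 24 h replicate 2 the test called 1259 genes, and without entinostat 24 h replicate 3 it called 1325; without entinostat 48 h replicate 1, 822 genes fell.

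Part of the shift was shared with culture time, and part was not. Across the 2036 genes the entinostat and DMSO shifts, which have no array in common, correlated with r = 0.43, and across all genes with r = 0.25; genes are not independent replicates. The sign was the same in both for 67.6% of the 2036 genes and for 56.0% of all genes. The test of the interaction, which asks whether the entinostat shift differs from the DMSO shift, passed for 380 genes (1.92%), 157 upward (0.794%) and 223 downward (1.13%). Of these, 341 were among the 2036. The interaction count fell whenever an array was left out, to 123 without DMSO 48 h replicate 3 and to at most 285 (without entinostat 48 h replicate 2), so in the comparisons below an interaction is given only for genes that passed in all 12 refits without 1 array.

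**Figure D1:**
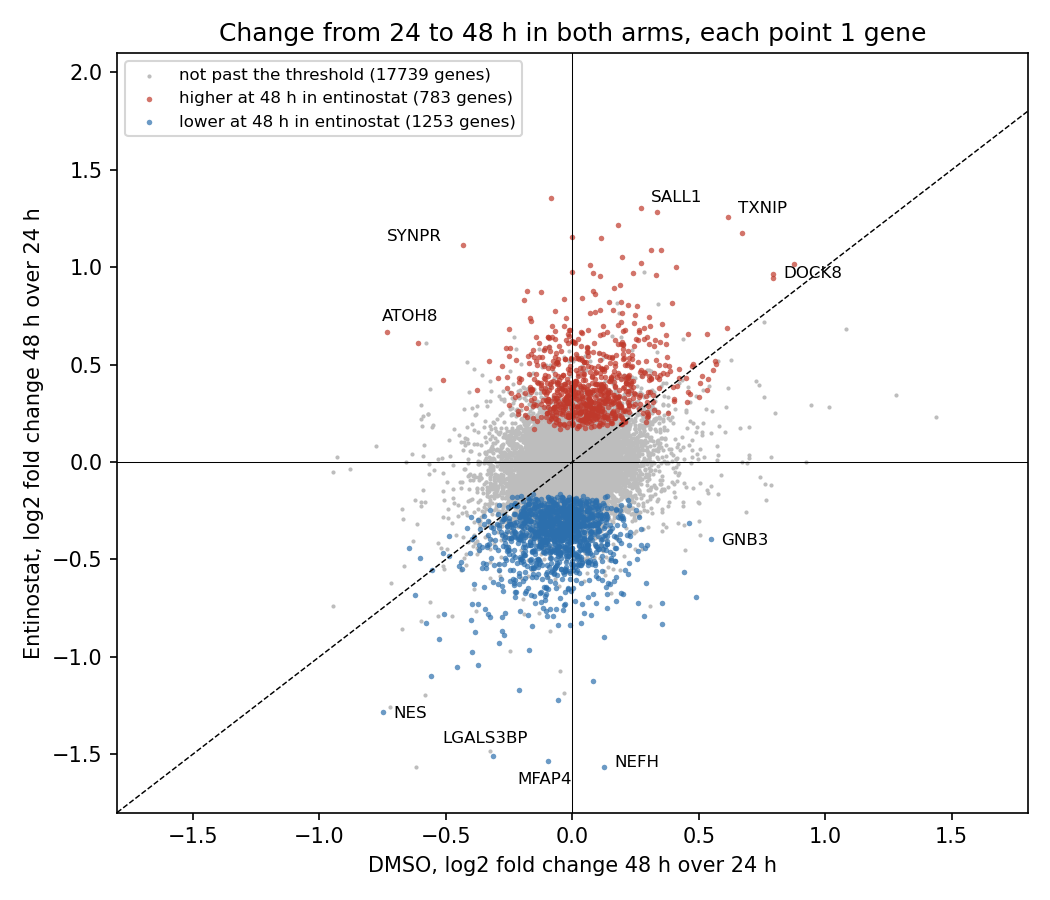
Log2 fold change of 48 over 24 h in entinostat (vertical axis) against the same in DMSO (horizontal axis); each point is 1 of 19775 genes, red for the 783 that rose in entinostat, blue for the 1253 that fell, grey for the rest, and the dashed line marks equal shifts. The coloured points, which were picked by their shift in entinostat, spread further along the vertical than along the horizontal axis.

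The 12 largest falls were in genes that stood above DMSO after the first day on entinostat, in genes that stood below it, and in 4 that had not passed against DMSO at that time (LGALS3BP, NES, MYL4 and CSRP2, adjusted p of 0.263 to 0.806). NEFH, the heavy neurofilament chain of axons, read 419, 490 and 456 after 24 h and 136, 201 and 133 after 48 h of entinostat. In DMSO its 6 arrays lay between 45.2 and 54.0, close to the lowest intensities of the arrays. All 3 later entinostat arrays were thus below the 3 earlier ones and above all DMSO arrays. The change of -1.56 (SE 0.13, adjusted p = 7.16e-05) was the largest fall under the naming rule, and it differed from the DMSO shift of 0.13 by -1.69 (adjusted p = 0.00242). MFAP4, a microfibril protein of the extracellular matrix, went further away from its DMSO level. Its intensity was 362, 380 and 523 at 24 h and 124, 147 and 163 at 48 h, while the DMSO arrays lay between 1002 and 1252. It fell by 1.53 on the log2 scale (SE 0.14, adjusted p = 0.000101), and the interaction was -1.44 (adjusted p = 0.00582).

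LGALS3BP, a secreted glycoprotein that binds galectins, read 348, 499 and 367 and then 149, 131 and 141, a change of -1.51 (adjusted p = 0.006). NES, the intermediate filament nestin of neural progenitors, read 865, 1274 and 972 and then 406, 424 and 429, a change of -1.29 (adjusted p = 0.00803). Neither group of arrays overlapped the other, but NES was also lower later in DMSO, by -0.75 (adjusted p = 0.246), and for neither gene did the interaction pass. The other probe set of NES gave -0.62 and did not pass. DHRS2, a short-chain dehydrogenase, went from 661, 304 and 409 to 153, 224 and 190, a fall of 1.22 on the log2 scale (adjusted p = 0.00514). Its DMSO arrays stayed between 99.5 and 109, so the later entinostat arrays were still the higher ones. The other probe set of DHRS2 fell by 2.11.

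The muscle genes MYL4, an atrial myosin light chain, and NEB, the thin-filament protein nebulin, were among the falls too, at -1.17 (adjusted p = 0.0169) and -1.12 (adjusted p = 0.014). The MYL4 arrays read 951, 2084 and 1452 at 24 h and 614, 708 and 579 at 48 h. Both calls rested on single arrays: that of MYL4 was lost without entinostat 24 h replicate 2 or 3 or 48 h replicate 1 or 3 (adjusted p up to 0.062), and that of NEB without 24 h replicate 2 or 48 h replicate 1 (adjusted p up to 0.0622). The other probe set of NEB gave -0.02. The histone gene H2AC6 fell by 1.10 on the log2 scale (adjusted p = 0.00438); its level was 802, 1058 and 865 and then 336, 554 and 400. In DMSO it read 506, 807 and 571 and then 423, 426 and 405, also without overlap, a difference of -0.56 (adjusted p = 0.257), and the interaction did not pass (adjusted p = 0.433). CSRP2, a LIM domain protein, read 3062, 3050 and 3075 and then 1356, 1538 and 1542. It fell by 1.05 (adjusted p = 4.3e-05), and by 0.46 in DMSO (adjusted p = 0.0383), a DMSO call that was lost without DMSO 48 h replicate 3. ADI1, an enzyme that recovers methionine, read 1106, 1200 and 1326 and then 575, 661 and 623, a change of -0.96 (adjusted p = 6.68e-05), against -0.17 in DMSO. The interaction of ADI1 was -0.79 (adjusted p = 0.00787), and 2 of its 3 probe sets passed for the fall in entinostat.

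**Figure D2:**
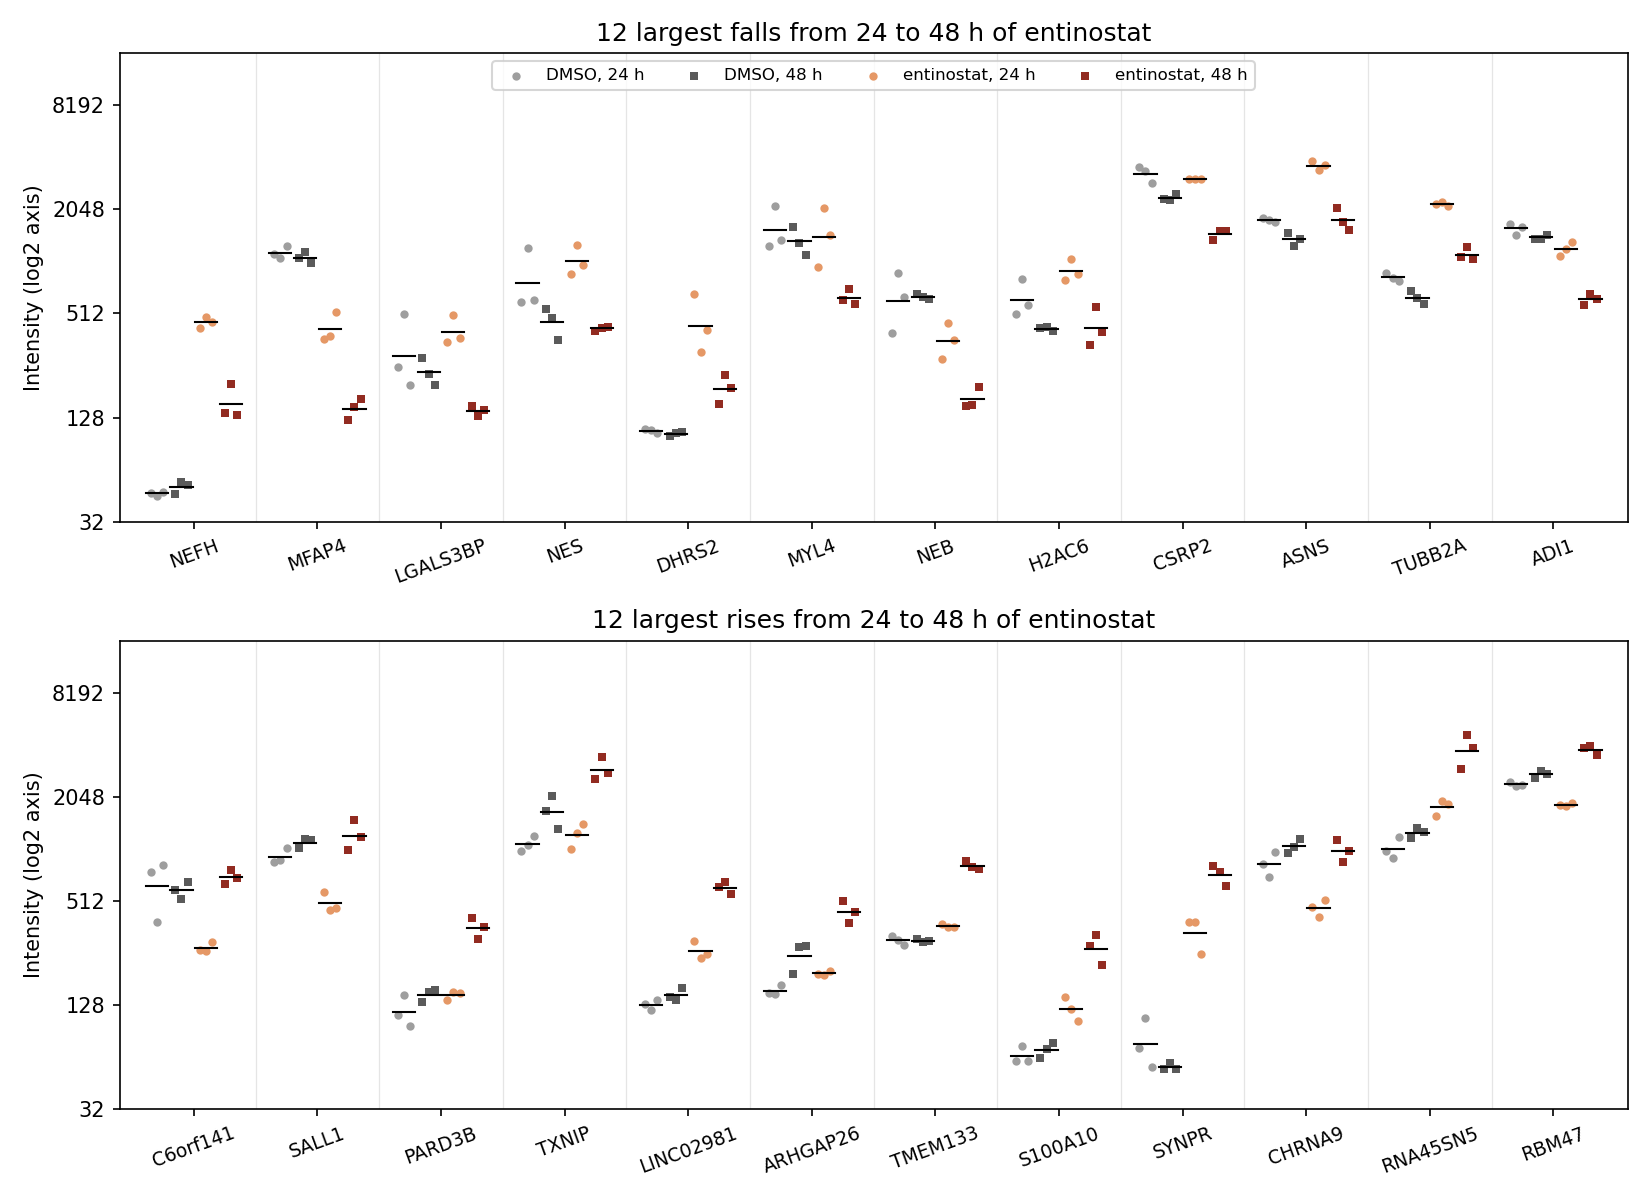
Intensity of each array, on a log2 axis, for the 12 genes with the largest falls and the 12 with the largest rises from 24 to 48 h of entinostat, with the 4 groups side by side; points are arrays and bars are the means of the log2 values (n = 3). In every panel the 3 points of entinostat 48 h lie apart from the 3 of entinostat 24 h, as the naming rule required. The DMSO points lie below, above or between them, and in some genes, such as MYL4 and C6orf141, they overlap them.

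Among the rises, several genes that were below their DMSO level on the first day were at or above it on the second. C6orf141, an uncharacterised gene, went from 266, 262 and 297 to 638, 774 and 700, a log2 fold change of 1.35 (SE 0.22, adjusted p = 0.00328). Its DMSO arrays ranged from 388 to 832 and took in all 3 of the later entinostat arrays. SALL1, a zinc finger repressor of early development, rose by 1.30 (SE 0.14, adjusted p = 0.000268). It read 576, 452 and 467 and then 1007, 1508 and 1203, beside 859 to 1166 in DMSO. CHRNA9, a subunit of nicotinic acetylcholine receptors, rose by 1.09 (adjusted p = 0.000665), from 472, 417 and 517 to 1147, 857 and 994. RBM47, an RNA-binding protein, read 1830, 1813 and 1898 and then 3924, 4019 and 3570. The DMSO arrays of RBM47 lay between the entinostat times, from 2355 to 2895. All 5 of its probe sets rose, by 0.67 to 1.05, and the interaction of 0.86 (adjusted p = 0.00148) passed in every refit.

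Other rises carried genes further above DMSO, or in PARD3B above it. TMEM133, a symbol taken from the array annotation, stood at 379, 363 and 364 and then at 876, 808 and 782. Its 6 DMSO arrays lay between 285 and 322. The change of 1.15 (SE 0.06, adjusted p = 8.49e-06) differed from that in DMSO by 1.16 (adjusted p = 0.000331). LINC02981, a noncoding RNA, went from 299, 239 and 254 to 616, 659 and 562, and all 4 of its probe sets rose. Its change of 1.22 (adjusted p = 4.95e-05) had an interaction of 1.04 (adjusted p = 0.005). SYNPR, the synaptic vesicle protein synaptoporin, read 387, 387 and 252 and then 815, 754 and 625, far above the 54.6 to 108 of the DMSO arrays. It rose by 1.12 (SE 0.21, adjusted p = 0.00849), but not once 30 was subtracted from every intensity (adjusted p = 0.0593). PARD3B, a relative of a cell polarity protein, rose by 1.29 (adjusted p = 0.000293), from 137, 152 and 150 to 408, 307 and 361, and 2 of its 5 probe sets passed. Its DMSO arrays lay between 96.4 and 156, and at 24 h it had not passed against DMSO (0.32, limma, adjusted p = 0.117). S100A10, a calcium-binding partner of annexin, rose by 1.15 (adjusted p = 0.000876), from 143, 122 and 104 to 282, 324 and 219, while its other probe set gave 0.01.

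TXNIP, an inhibitor of thioredoxin that also restrains glucose uptake, and ARHGAP26 were higher later in both arms. TXNIP read 1024, 1271 and 1424 and then 2594, 3471 and 2830 in entinostat, a rise of 1.26 (adjusted p = 0.00089), with 0.62 (adjusted p = 0.14) in DMSO. ARHGAP26 read 194, 191 and 202 and then 511, 381 and 445, a rise of 1.18 (adjusted p = 0.000401), with 0.67 (adjusted p = 0.0575) in DMSO. The last of the 12 is RNA45SN5, the precursor of ribosomal RNA, at 1586, 1941 and 1850 and then 2979, 4652 and 3941. It rose by 1.09 (adjusted p = 0.00119), and its other probe set by 1.33. The control probe sets of the array for 18S ribosomal RNA moved with it. Their mean log2 intensity went from 12.8 to 13.2 at the 3′ end, from 13.3 to 13.4 in the middle and from 13.8 to 13.9 at the 5′ end of the transcript. For all 3 control sets the later entinostat arrays lay above the earlier ones (exact permutation test, two-sided, p = 0.1, the smallest that 3 arrays against 3 allow). The part of ribosomal RNA carried into the labelled samples in this rise was not tested. The end-to-end difference of GAPDH probe sets, a sign of RNA quality, went from -0.13 to -0.06 on the log2 scale (exact permutation test, two-sided, p = 0.2), and that of ACTB from -0.11 to -0.14 (p = 0.4).

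Genes of cell division fell on the second day, and no member of the DNA replication, mitosis and kinetochore lists rose. For mitosis, 15 of 40 measured cyclins, kinases and kinesins fell, beside 6.34% of all genes, with a median log2 fold change of -0.17 over the 40. For the kinetochore and the spindle checkpoint, which tie chromosomes to the spindle, 15 of 42 fell, with a median of -0.24. For DNA replication 10 of 40 fell, with a median of -0.14. The median over all genes was -0.0025, and in DMSO the 3 lists had medians of -0.01, -0.04 and 0.00 with no member past the threshold. Bright genes passed more often, and among all genes with a mean log2 intensity of at least 7 the share that fell was 11.3%. The list medians lay between -0.27 and -0.18 in each of the 3 later arrays for mitosis, relative to the mean of 24 h.

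The promoters of CCNB2, a cyclin of mitosis, and CDK1, its kinase partner, are shown because both genes fell and hold the element that many mitotic genes share. CCNB2 and CDK1 were chosen after their values were seen. Each line gives the 100 bases before the start of the gene, 5′ to 3′ on the gene's strand, from RefSeq on GRCh38.p14; capitals mark the letters TTTGAA, the core of the cell cycle homology region.
CCNB2: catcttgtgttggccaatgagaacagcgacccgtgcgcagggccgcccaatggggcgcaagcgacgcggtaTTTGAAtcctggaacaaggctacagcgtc
CDK1: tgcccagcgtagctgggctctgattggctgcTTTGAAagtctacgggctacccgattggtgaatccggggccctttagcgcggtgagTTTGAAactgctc
The first lies at chr15:59105046-59105145 on the plus strand, with the motif starting 29 bases before the start, and the second at chr10:60778378-60778477 on the plus strand, with motifs 69 and 13 bases before it.

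In the 250 bases before the start, on either strand, TTTGAA occurs in 20 of the 32 mitotic genes with a promoter in the table (62.5%), in 7 of 34 kinetochore genes (20.6%) and in 0 of 33 replication genes, against 13.3% of all 35116 promoters. Of the mitotic genes that fell, 8 of 15 hold it (53.3%), of all genes that fell 12.6%, of those that rose 12.9% and of all measured genes 13.9%. The E2F letters TTTCCCGC or TTTGGCGC, which overlap no TTTGAA by their spelling, occur in 12 of 33 replication genes (36.4%), and in 2 of the 9 that fell (22.2%); they occur in 1.93% of all promoters, in 3.15% of those of measured genes, in 5.21% of the genes that fell and in 3.94% of those that rose. These counts describe letters in a window. CCNB2 read 1523, 1442 and 1487 at 24 h and 1101, 1233 and 1105 at 48 h, a change of -0.37 (SE 0.06, adjusted p = 0.00245), in 1 of its 3 probe sets. CDK1 read 2765, 2666 and 2828 and then 2356, 2257 and 2245, a change of -0.27 (SE 0.05, adjusted p = 0.0065). In DMSO the arrays of CCNB2 overlapped between times, while those of CDK1 were higher later at 0.07 (adjusted p = 0.651).

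**Figure D3:**
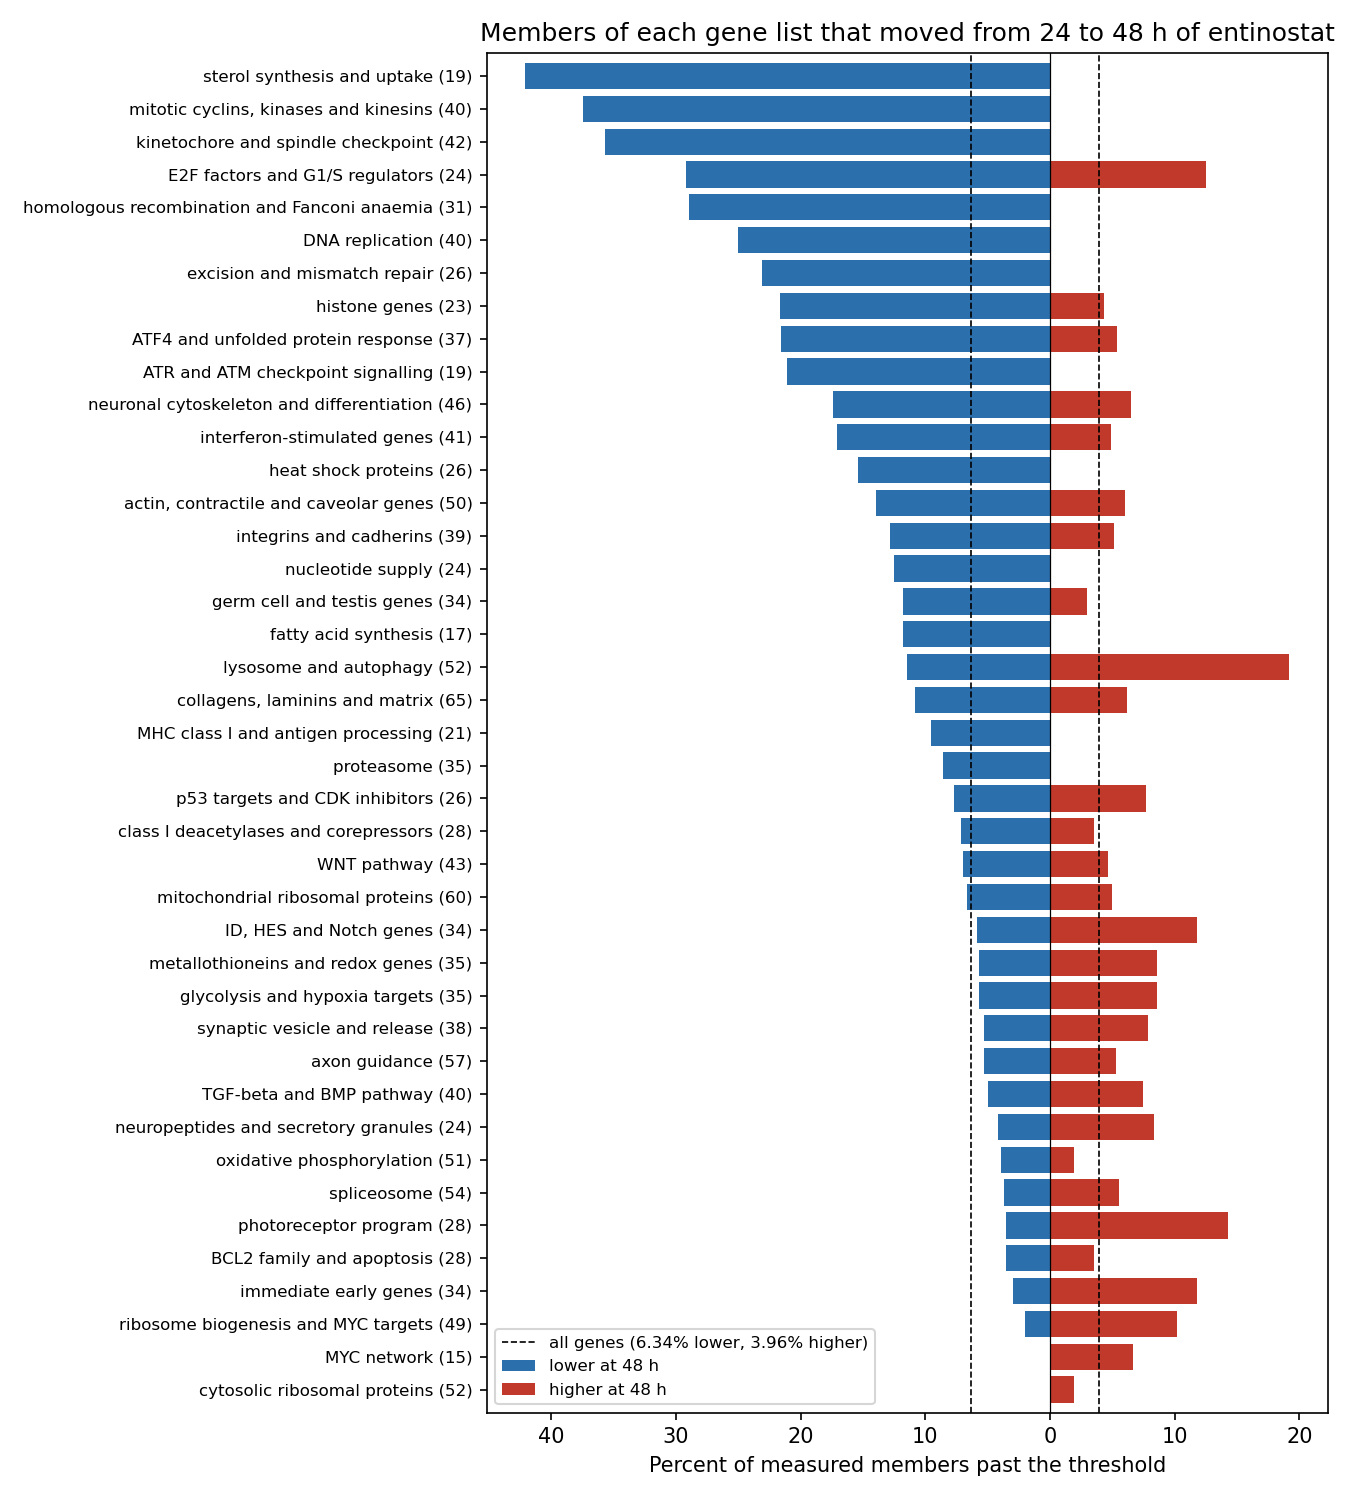
Share of the measured members of each of 41 gene lists that fell (bars to the left) or rose (bars to the right) from 24 to 48 h of entinostat, in percent; the dashed lines mark 6.34% and 3.96%, the shares of all genes. Sterol synthesis, mitosis and the kinetochore have the longest bars to the left, and lysosome and autophagy the longest to the right.

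Within mitosis, the kinesins KIF18A, which limits chromosome movement, and KIF15, which pushes spindle poles apart, fell by 0.52 (adjusted p = 0.000891) and 0.51 (adjusted p = 0.00996). KIF18A read 397, 348 and 366 and then 251, 273 and 249, and its interaction of -0.60 (adjusted p = 0.0137) passed in every refit without 1 array, though not once 30 was subtracted from every intensity. ANLN, the scaffold of the cleavage furrow, fell by 0.50 (adjusted p = 0.0122). At the kinetochore, SKA3 and SKA1, partners in a complex that holds on to microtubule ends, fell by 0.83 (adjusted p = 0.0113) and 0.57 (adjusted p = 0.000293). SKA3 went from 403, 345 and 432 to 208, 185 and 278. HJURP, the chaperone of the centromeric histone, fell by 0.55 (adjusted p = 0.00669) and the scaffold KNL1 by 0.48 (adjusted p = 0.0022). Of these 7 genes SKA3 had the largest fall and the widest spread.

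In DNA replication, POLA2, a subunit of the primase complex, fell most, by 0.65 (adjusted p = 0.000555), from 479, 508 and 525 to 322, 356 and 291. RPA1, which coats single-stranded DNA, read 1780, 1844 and 1796 and then 1267, 1289 and 1301. It fell by 0.49 (adjusted p = 0.00022), DMSO gave 0.03, and the interaction of -0.52 (adjusted p = 0.00582) passed in every refit without 1 array, though not with 30 subtracted. The fork protein TIMELESS fell by 0.46 (adjusted p = 0.000277) and its partner CLSPN by 0.38 (adjusted p = 0.00778). With probe sets named _x_at or _s_at left out, since these may also bind other genes, POLA2 and TIMELESS were at -0.20 (adjusted p = 0.306) and -0.17 (adjusted p = 0.151). Nucleotide supply had 3 falls among 24 genes (12.5%), near the 11.3% of all genes with a mean log2 of at least 7. Its largest fall was that of the thymidine kinase TK1 at -0.68 (adjusted p = 0.00134), from 884, 1051 and 972 to 517, 628 and 672. Of 24 E2F factors and regulators of entry into S phase 7 fell (29.2%) and 3 rose (12.5%), beside 6.34% and 3.96% of all genes. The largest were MYBL2, a factor that drives late cell cycle genes, at -0.65 (adjusted p = 0.00541), the repressor E2F7 at -0.44 (adjusted p = 0.0121) and the ubiquitin ligase part SKP2 at -0.38 (adjusted p = 0.0022). The other probe set of E2F7 gave -0.04.

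**Figure D4:**
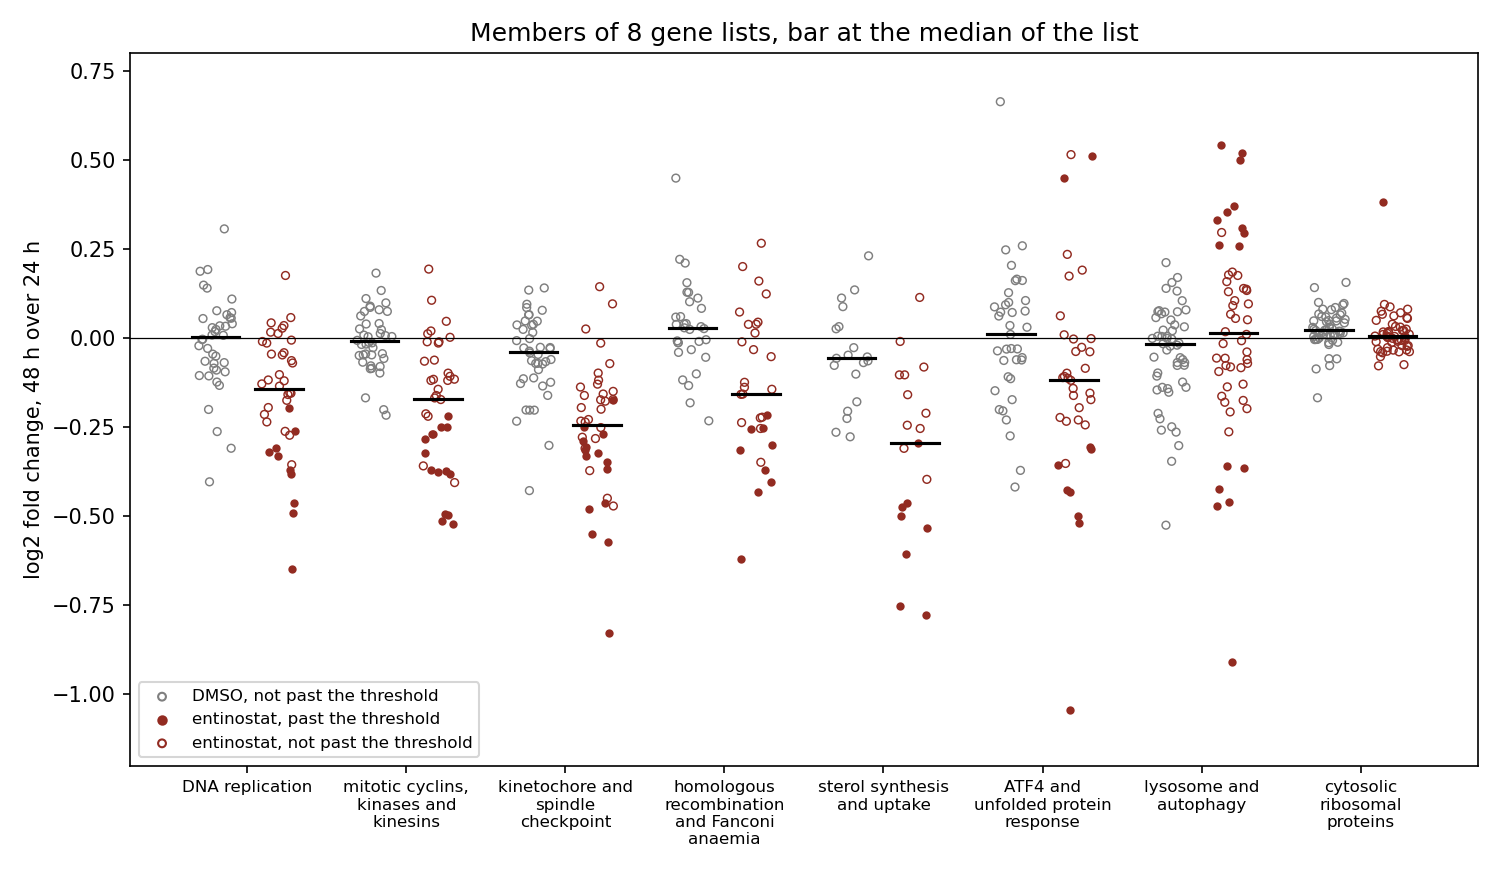
Log2 fold change of 48 over 24 h for each measured member of 8 gene lists, in DMSO (open grey points) and in entinostat (filled where past an adjusted p of 0.05), with a bar at the median. The median in entinostat of the sterol list, -0.29, is the lowest of the 8, and no member passed in DMSO.

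Among the DNA repair lists, genes fell and none rose. Of 31 genes of homologous recombination and the Fanconi pathway 9 fell (median -0.16), of 26 of excision and mismatch repair 6 fell (median -0.10), and of 19 of ATR and ATM signalling 4 fell (median -0.14), beside falls in 6.34% of all genes and in 11.3% of those with a mean log2 of at least 7. In DMSO the medians were 0.03, 0.03 and -0.01 with no member past the threshold. The helicase BLM, which unwinds recombination intermediates, read 581, 596 and 515 and then 404, 350 and 348, a change of -0.62 (adjusted p = 0.00172). The nuclease EXO1 fell by 0.37 (adjusted p = 0.00303). NEIL2, a glycosylase that removes oxidised bases, went from 477, 471 and 493 to 277, 342 and 286 while DMSO lay between 542 and 626. It fell by 0.68 (adjusted p = 0.000361), with an interaction of -0.76 (adjusted p = 0.00719). CHEK1, the kinase downstream of ATR, fell by 0.40 (adjusted p = 0.000833), from 344, 327 and 337 to 246, 264 and 255.

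H2AX, the histone whose phosphorylated form marks DNA breaks, read 3277, 3448 and 3479 and then 1870, 1436 and 2296. Its transcript fell by 0.89 (SE 0.13, adjusted p = 0.00154), and 3 of its 4 probe sets passed. In DMSO it stood at 2463, 2303 and 2408 and then 1884, 1939 and 2132, a shift of -0.27 (adjusted p = 0.467). H2AX also counts in the histone list, of which 5 of 23 measured members fell (21.7%) and 1 rose (4.35%). The shares of all genes were 6.34% and 3.96%. The polymerases of the study's drug target did not pass: PARP1, the main poly(ADP-ribose) polymerase, went from 3536, 3655 and 3335 to 2988, 3126 and 3152, a difference of -0.18 (SE 0.06, adjusted p = 0.0916). PARP2 went from 487, 431 and 501 to 418, 340 and 408, a difference of -0.28 (SE 0.09, adjusted p = 0.083). In both genes the later arrays lay below the earlier ones, and both passed when only probe sets with a mean log2 of at least 7 were tested (adjusted p = 0.0461 and 0.045). PARP2 also passed with the replicate number as a block (adjusted p = 0.014). Of 26 p53 targets and inhibitors of cyclin-dependent kinases 2 rose and 2 fell (7.69% each), beside 3.96% and 6.34% of all genes. The risen ones are ZMAT3, an RNA-binding protein, at 0.49 (adjusted p = 0.00046), and AEN, a nuclease of apoptosis, at 0.48 (adjusted p = 0.000834), the latter from 355, 350 and 356 to 486, 483 and 506.

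Sterol synthesis had the largest share of falling members, 8 of 19, beside 6.34% of all genes and 11.3% of those with a mean log2 of at least 7. The median over the 19 was -0.29. DMSO had a median of -0.06 and no call, where calls were 0.46% of all genes. The interaction passed for no member of the list. The list medians of the 3 later arrays were -0.27, -0.31 and -0.29 relative to the mean of 24 h. SC5D, a desaturase late in the cholesterol pathway, read 993, 1186 and 917 and then 549, 610 and 640, a change of -0.78 (adjusted p = 0.0026). HMGCS1, which makes the precursor of mevalonate, went from 1555, 1011 and 1447 to 944, 667 and 756, a change of -0.75 (adjusted p = 0.0108). The thiolase ACAT2 fell by 0.61 (adjusted p = 0.0139) and the dehydrogenase NSDHL by 0.53 (adjusted p = 0.00327). The 3 earlier arrays lay above the 3 later ones in each of the 4 genes. With the 6 entinostat arrays fitted alone HMGCS1 and ACAT2 did not pass (adjusted p = 0.0566 and 0.0516), nor did NSDHL with _x_at and _s_at probe sets left out (-0.37, adjusted p = 0.0563). Of 17 genes of fatty acid synthesis 2 fell (11.8%), near the 11.3% of genes with a mean log2 of at least 7.

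Of 37 genes of the amino acid and unfolded protein responses 8 fell and 2 rose, with a median of -0.12 (DMSO 0.01); of all genes with a mean log2 of at least 7, 11.3% fell and 6.91% rose. ASNS, asparagine synthetase, is a textbook target of the factor ATF4 through the element in its promoter, which is shown for that reason.
ASNS: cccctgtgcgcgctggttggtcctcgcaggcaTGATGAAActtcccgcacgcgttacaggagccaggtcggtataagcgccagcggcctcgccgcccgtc
The line gives the 100 bases before the start, at chr7:97872409-97872508 on the minus strand (RefSeq, GRCh38.p14). Capitals mark the match to TGATGNAA, the amino acid response element, 68 bases before the start; the letters occur within 250 bases of the start, on either strand, in 5 of 34 genes of this list (14.7%), in 3.14% of all promoters and in 2.46% of the genes that fell. ASNS read 3880, 3445 and 3674 after 24 h and 2087, 1731 and 1552 after 48 h, with 1834, 1765 and 1724 and then 1501, 1249 and 1376 in DMSO. The later entinostat arrays thus lay around the level of DMSO at 24 h, but above all DMSO arrays of 48 h. At 48 h ASNS was higher in entinostat than in DMSO by 0.37 on the log2 scale (limma, adjusted p = 0.0136). It fell by 1.04 (SE 0.10, adjusted p = 0.000163). This is the value of its _s_at probe set, and the other probe set gave 0.04 (adjusted p = 0.831).

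PSAT1, an enzyme of serine synthesis, went from 3121, 2835 and 2820 to 2175, 2058 and 1978, a change of -0.50 (adjusted p = 0.000566), and PDIA4, a disulphide isomerase of the endoplasmic reticulum, from 1911, 2030 and 1988 to 1329, 1387 and 1423, a change of -0.52 (adjusted p = 0.000243). ERN1, the sensor of unfolded proteins also known as IRE1, moved the other way, from 709, 693 and 632 to 850, 1024 and 1032, a rise of 0.51 (adjusted p = 0.00546). Of 26 heat shock genes none rose and 4 fell (15.4%), beside 6.34% of all genes and 11.3% of those with a mean log2 of at least 7. They include the small chaperone CRYAB at -0.52 (adjusted p = 0.00127) and the cochaperone DNAJB6 at -0.51 (adjusted p = 0.00761).

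Neuronal genes did not move as a block. Of 46 genes of the neuronal cytoskeleton and of differentiation 8 fell (17.4%) and 3 rose (6.52%), beside 6.34% and 3.96% of all genes. The list had a median of -0.06. The falls include NEFH, described above, and TUBB2A, a beta-tubulin of neurons, at 2203, 2263 and 2144 and then 1084, 1234 and 1051, a change of -0.97 (adjusted p = 5.61e-05). The later arrays of TUBB2A were still above the 579 to 878 of DMSO. MARCKSL1, which links the membrane to actin, was below DMSO at both times and moved further, from 1674, 1718 and 1698 to 1047, 950 and 960 beside 2361 to 2713 in DMSO. It fell by 0.78 (adjusted p = 4.99e-05), with an interaction of -0.86 (adjusted p = 0.00166). NEFM, the medium neurofilament chain, fell by 0.73 (adjusted p = 0.0129), but without entinostat 48 h replicate 1 or 3 it did not pass (adjusted p up to 0.0544), and its other probe set gave 0.13.

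At the synapse, 3 of 38 genes of vesicles and release rose (7.89%), SYNPR among them, and 2 fell (5.26%), beside 3.96% and 6.34% of all genes. SYT1, the calcium sensor of vesicle release, went from 2121, 1940 and 1925 to 2482, 2488 and 2574, a rise of 0.34 (adjusted p = 0.0051). GAL, the precursor of the neuropeptide galanin, was the 1 member of 24 neuropeptide and granule genes that fell (4.17%), while 2 rose (8.33%). Its arrays read 480, 486 and 548 and then 288, 265 and 276, a change of -0.87 (SE 0.06, adjusted p = 2.56e-05), while its other probe set gave -0.02. In DMSO it stood at 945 to 957 and then 780 to 785, and the interaction was -0.59 (adjusted p = 0.00717).

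Among 57 genes of axon guidance 3 rose and 3 fell (5.26% each), near the 3.96% and 6.34% of all genes. NRP2, a receptor for class 3 semaphorins, rose by 0.70 (adjusted p = 0.00405), from 622, 617 and 536 to 1169, 840 and 896, and 10 of its 11 probe sets passed. Its ligand SEMA3F rose by 0.49 (adjusted p = 0.00257), from 1564, 1530 and 1483 to 2034, 2214 and 2189. The membrane-bound SEMA4F fell by 0.50 (adjusted p = 0.000285), with an interaction of -0.58 (adjusted p = 0.00549). The 4 protocadherins named by the rule, adhesion proteins of neurons, all fell: PCDH17 by 0.93 (adjusted p = 0.0137), PCDH8 by 0.90 (adjusted p = 0.000266), PCDH9 by 0.51 (adjusted p = 0.00145) and PCDH10 by 0.41 (adjusted p = 0.0045). PCDH8 went from 98.1, 103 and 96.9 to 49.4, 60.9 and 50.6, close to the 45.4 to 57.9 of DMSO, and its interaction of -1.02 (adjusted p = 0.00514) passed in every refit. PCDH17 read 388, 398 and 256 and then 147, 207 and 189, and did not pass without entinostat 24 h replicate 1 or 2 or 48 h replicate 1 (adjusted p up to 0.0612). PCDH9 was at -0.16 (adjusted p = 0.265) with _x_at and _s_at probe sets left out. In the list of integrins and cadherins, which holds them, 5 of 39 fell (12.8%) and 2 rose (5.13%). Of all genes with a mean log2 of at least 7, 11.3% fell and 6.91% rose.

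The photoreceptor program, part of the identity of Group 3 tumours, had 4 of 28 members that rose and 1 that fell, beside rises in 3.96% of all genes. The median of the list was 0.06 in entinostat and 0.08 in DMSO. IMPG2, a proteoglycan of the matrix around photoreceptors and a Group 3 marker, went from 740, 533 and 901 to 1250, 1050 and 1295, a rise of 0.75 (adjusted p = 0.0113), which did not pass with the 6 entinostat arrays fitted alone (adjusted p = 0.0553). It was still below all DMSO arrays, which lay between 2708 and 3516. PDE6H, a subunit of the cone phosphodiesterase, rose by 0.67 (adjusted p = 0.000773), and PROM1, the membrane protein prominin, by 0.46 (adjusted p = 0.00763). GNB3, a G protein subunit of photoreceptors, moved opposite ways in the arms. It read 187, 224 and 230 and then 152, 168 and 165 in entinostat (-0.40, adjusted p = 0.0246), and 247, 277 and 276 and then 350, 389 and 434 in DMSO (0.55, adjusted p = 0.0375). The interaction of -0.95 (adjusted p = 0.00759) passed in every refit, while the entinostat call was lost without 24 h replicate 2 or 3 or 48 h replicate 1 or 3 (adjusted p up to 0.0959) and the DMSO call without DMSO 48 h replicate 3. Of 34 ID, HES and Notch genes 4 rose (11.8%) and 2 fell (5.88%), beside 3.96% and 6.34% of all genes. Among them were the neurogenic factor NEUROD4 at 0.40 (adjusted p = 0.00245) and the repressor HES4 at -0.38 (adjusted p = 0.00525).

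Lysosome and autophagy genes had the largest share of rising members, 10 of 52, beside 3.96% of all genes and 6.91% of those with a mean log2 of at least 7; 6 of the 52 fell, and the median was 0.01. Subunits of the proton pump that acidifies lysosomes were among the rises. ATP6V0D1 read 641, 688 and 595 and then 956, 910 and 932, a rise of 0.54 (adjusted p = 0.000594), while DMSO gave -0.25 (adjusted p = 0.137) and an interaction of 0.79 (adjusted p = 0.00324). ATP6V1H rose by 0.52 (adjusted p = 0.000277), from 641, 598 and 578 to 886, 848 and 865, with an interaction of 0.59 (adjusted p = 0.00519); with _x_at and _s_at probe sets left out it was at -0.04 (adjusted p = 0.792) and the interaction did not pass. The falls were led by CTSV, a cysteine protease of lysosomes, from 1565, 1194 and 1150 to 739, 648 and 680, a change of -0.91 (adjusted p = 0.00413).

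Of 65 matrix genes 7 fell (10.8%) and 4 rose (6.15%), beside 6.34% and 3.96% of all genes. These shares were near those of genes with a mean log2 of at least 7, of which 11.3% fell and 6.91% rose. COL8A1, a short-chain collagen, was dim and rose by 0.84 (SE 0.06, adjusted p = 3.05e-05), from 71.2, 65.6 and 66.2 to 126, 114 and 125, in 1 of its 3 probe sets; DMSO lay between 53.2 and 59.3 and the interaction was 0.80 (adjusted p = 0.00194). LAMB1, a laminin chain of basement membranes, rose by 0.82 (adjusted p = 0.000208), from 681, 790 and 820 to 1471, 1328 and 1236. It was also higher later in DMSO, by 0.39 (adjusted p = 0.066). TIMP2, an inhibitor of matrix metalloproteinases, fell by 0.71 (adjusted p = 0.00308). Of 50 actin, contractile and caveolar genes 7 fell (14%) and 3 rose (6%), beside 6.34% and 3.96% of all genes. CNN3, a calponin, had shifts of -0.47 (adjusted p = 0.00448) in entinostat and -0.40 (adjusted p = 0.0576) in DMSO.

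The enzymes that make bilirubin from biliverdin moved apart. BLVRB, the reductase that also reduces flavins, went from 715, 763 and 729 to 1299, 1350 and 1393, while its 6 DMSO arrays lay between 136 and 158. The rise of 0.87 (SE 0.05, adjusted p = 1.31e-05) came with an interaction of 1.00 (adjusted p = 0.000331). BLVRA, the main biliverdin reductase, fell by 0.37 (adjusted p = 0.000625), from 1580, 1567 and 1580 to 1220, 1253 and 1179, and 4 of its 5 probe sets passed. GPX1, a glutathione peroxidase, fell by 0.80 (adjusted p = 0.000145), from 2904, 2918 and 2622 to 1634, 1691 and 1537. These 3 belong to the redox list, in which 3 of 35 rose (8.57%) and 2 fell (5.71%), beside 3.96% and 6.34% of all genes. Beside 6.34% and 3.96% of all genes, 7 of 41 interferon-stimulated genes fell (17.1%), LGALS3BP among them, and 2 rose (4.88%). IFI6, a mitochondrial protein of that response, rose by 0.64 (adjusted p = 0.000275), from 298, 285 and 271 to 443, 485 and 408, with an interaction of 0.74 (adjusted p = 0.00516).

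The MYC network and the class I deacetylases, the amplified gene and the drug's targets, showed little movement. MYC was the brightest of the named genes, at 11828, 11331 and 11609 and then 12956, 13272 and 12765. The 3 later arrays were the higher ones, but the difference of 0.17 (SE 0.05) had an adjusted p of 0.0548. It passed under quantile normalization (adjusted p = 0.0357), normexp background correction (adjusted p = 0.0351), a trended and robust prior (adjusted p = 0.00758) and with dim probe sets left out (adjusted p = 0.0248). HDAC1 gave 0.11 (adjusted p = 0.621), HDAC2 -0.11 (adjusted p = 0.736), HDAC3 -0.22 (adjusted p = 0.288) and HDAC8 -0.11 (adjusted p = 0.403), and for these 4 genes the arrays of both times overlapped.

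Of 15 genes of the MYC network 1 rose (6.67%), where 3.96% of all genes rose and 6.34% fell. Of 28 deacetylases and corepressors 1 rose (3.57%) and 2 fell (7.14%). Among MYC targets and genes of ribosome biogenesis, 49 in all, 5 rose (10.2%) and 1 fell (2.04%). They include UBTF, a factor of ribosomal RNA transcription, at 0.36 (adjusted p = 0.00122), for which 1 of 5 probe sets passed. The large housekeeping complexes held near or below the background shares: 1 of 52 cytosolic ribosomal proteins rose and none fell, 3 of 35 proteasome genes fell, 1 of 51 genes of oxidative phosphorylation rose and 2 fell, among them the succinate dehydrogenase subunit SDHA at -0.40 (adjusted p = 0.00279), and 3 of 60 mitochondrial ribosomal proteins rose and 4 fell. Of 54 spliceosome genes 3 rose (5.56%) and 2 fell (3.7%). Of 28 BCL2 family and apoptosis genes 1 rose and 1 fell (3.57% each).

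Of 35 genes of glycolysis and hypoxia 3 rose (8.57%) and 2 fell (5.71%), beside 3.96% and 6.34% of all genes. PKM, pyruvate kinase of muscle and tumours, rose by 0.42 (adjusted p = 0.00444), from 3956, 3755 and 4446 to 5638, 5505 and 5118 (its other probe set gave 0.07), and BNIP3L, a receptor for the removal of mitochondria, fell by 0.52 (adjusted p = 0.00675). In the TGF-beta and BMP pathway 3 of 40 rose (7.5%) and 2 fell (5%). The ligand BMP7 rose by 0.46 (adjusted p = 0.00457), its receptor BMPR1B fell by 0.43 (adjusted p = 0.00317), and SMAD9, a transducer of BMP signals, rose by 0.58 (adjusted p = 0.00117). SMAD9 read 2502, 1971 and 2305 and then 3396, 3525 and 3201 in entinostat, and 2352, 2145 and 2281 and then 1831, 1924 and 1894 in DMSO, with an interaction of 0.85 (adjusted p = 0.00582). Of 43 WNT pathway genes 2 rose (4.65%) and 3 fell (6.98%), near the shares of all genes. Of 34 immediate early genes 4 rose (11.8%) and 1 fell (2.94%). Of 21 MHC class I genes 2 fell (9.52%), and of 34 germ cell genes 1 rose (2.94%) and 4 fell (11.8%).

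A few genes moved clearly away from their DMSO course. SUSD2, a membrane protein with a sushi domain, read 340, 318 and 382 and then 177, 205 and 203 in entinostat, and 634, 635 and 733 and then 782, 879 and 900 in DMSO. The shifts of -0.83 (adjusted p = 0.000312) and 0.36 (adjusted p = 0.123) differed by -1.19 (adjusted p = 0.0022). ENO3, the muscle enolase, started from a like level in both arms, at 435, 574 and 580 with entinostat and 393, 509 and 558 with DMSO. At 48 h it stood at 320, 324 and 329 with entinostat and 671, 751 and 612 with DMSO, so that the later arrays of the arms did not overlap. The fall of 0.69 (adjusted p = 0.00848) had an interaction of -1.18 (adjusted p = 0.0143). NPNT, a matrix ligand of integrins, fell by 0.72 (adjusted p = 0.00245), with an interaction of -1.08 (adjusted p = 0.00917).

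In the other direction, ATOH8, a basic helix-loop-helix factor, read 151, 145 and 163 and then 208, 207 and 331 in entinostat, and 488, 399 and 507 and then 266, 258 and 314 in DMSO. The arms came together, with an interaction of 1.40 (adjusted p = 0.0156). The rise in entinostat of 0.67 (adjusted p = 0.0265) did not pass without any of the 3 arrays of 24 h in turn (adjusted p up to 0.0928) or with the entinostat arrays fitted alone (adjusted p = 0.0712). ARHGAP42 rose by 0.88 (adjusted p = 0.000761), from 207, 166 and 212 to 375, 398 and 303 in 1 of its 3 probe sets, and its interaction was 1.06 (adjusted p = 0.00928). FLT1, a receptor for vascular endothelial growth factors, rose by 0.61 (adjusted p = 0.0369), from 800, 760 and 625 to 1142, 1121 and 1057. This call was lost without any 1 of the 6 entinostat arrays or without DMSO 48 h replicate 3 (adjusted p up to 0.136). The interaction of FLT1, which also holds a downward shift in DMSO, was lost in 7 of the 12 refits and with 30 subtracted from every intensity. Unlike these genes AANAT, the enzyme that makes the precursor of melatonin, fell, by 0.79 (adjusted p = 0.00685), from 123, 126 and 161 to 78.5, 75.2 and 81.6. Its downward interaction was lost in 9 of the 12 refits without 1 array, so its difference from DMSO is not settled.

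A set of 32 genes passed in both arms, 30 of them with the same sign, beside 10.3% of all genes called in entinostat and 0.46% in DMSO. UCP2, an uncoupling protein of mitochondria, fell by 0.73 (adjusted p = 7.16e-05) with entinostat and by 0.40 (adjusted p = 0.0248) in DMSO. SNRNP25, a protein of the minor spliceosome, fell by 0.73 (adjusted p = 5.69e-05) and 0.37 (adjusted p = 0.0268). DOCK8, an activator of the GTPase CDC42, rose by 0.95 (adjusted p = 0.00218), from 492, 496 and 545 to 920, 1098 and 943, and by 0.79 (adjusted p = 0.0453) in DMSO. IGBP1, a regulator of phosphatases, rose by 0.50 (adjusted p = 0.000293) and 0.37 (adjusted p = 0.0229). DCAKD, a kinase-like protein of coenzyme A synthesis, was the other gene with opposite signs beside GNB3, at -0.31 (adjusted p = 0.0397) and 0.46 (adjusted p = 0.0431); its interaction of -0.77 (adjusted p = 0.0103) passed in every refit, but its entinostat call was lost in 9 of the 12 (adjusted p up to 0.142), and both were lost with _x_at and _s_at probe sets left out (-0.02, adjusted p = 0.873). All DMSO calls, these included, were lost without DMSO 48 h replicate 3.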

How the data were processed

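Total RNA of HD-MB03 cells, 3 biological replicates each of 24 h and 48 h in 1 µM entinostat or in DMSO, was measured on U133 Plus 2.0 arrays. The authors normalized the arrays before depositing them as linear intensities; GCRMA is named in the submitters' processing notes, with its version not given. The arrays had medians of 80.6 to 81.8 and a lowest intensity of 36.7, so a background level is left in every value, which GCRMA usually removes, and log2 fold changes of dim probe sets are smaller for it.

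Log2 was taken here. The 54613 probe sets that are not among the 62 controls were fitted with limma 3.58.1 in R 4.3.3, with 1 coefficient for each of the 4 groups, so that all 12 arrays share the estimate of the spread; 2 probe sets had an empty cell, 1 of them in an entinostat array, and were fitted without it. P-values were adjusted over all 54613 by Benjamini-Hochberg, with a threshold of 0.05. A single gene symbol was carried by 41091 probe sets, and each of 19775 genes was represented by its probe set of the highest mean log2; probe sets ending in _x_at or _s_at can bind several genes. The interaction is the entinostat shift minus the DMSO shift. The number of arrays limits the precision. On simulated data for this comparison, over 54611 probe sets, log2 changes of 0.25, 0.5, 1 and 2 were recovered for 8, 27, 45 and 50 of 50. The changes were given only to probe sets with a mean log2 of at least 7, so recovery of dim ones was not tested.

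Named genes were the 12 largest rises and falls with arrays that did not overlap and a mean log2 of at least 7 at one of the times, up to 4 called members of each of 48 gene lists, the 6 largest interactions each way, the largest shifts called in both arms, and the genes the study is about; the text gives a part of them. The gene lists and the rule were chosen with earlier results of these data known. Promoters come from RefSeq (GRCh38.p14); 15384 of the measured genes had one. Alternatives were the dim-probe filter, quantile normalization, median centring, 30 subtracted, normexp with an offset of 50, a trended and robust prior, arrays of the same treatment only, the replicate block, the probe set with the largest moderated t, no probe sets ending in _x_at or _s_at, stricter thresholds and leaving out each array.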

Additional observations from a re-analysis of the deposited data

Results flagged for a closer look

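For 50 of the genes named above, limma's test of the difference between the shifts from 24 to 48 h in entinostat and in DMSO passed with all 12 arrays after Benjamini-Hochberg adjustment. For 24 of them the call did not hold in every refit, and their difference is not taken as settled. The values below are the entinostat shift minus the DMSO shift, on the log2 scale.

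In 26 of the 50 the interaction passed in all 12 refits without 1 array. The downward ones were NEFH at -1.69, MFAP4 at -1.44, SUSD2 at -1.19, ENO3 at -1.18, NPNT at -1.08, PCDH8 at -1.02, GNB3 at -0.95, MARCKSL1 at -0.86, ADI1 at -0.79, DCAKD at -0.77, NEIL2 at -0.76, KIF18A at -0.60, GAL at -0.59, SEMA4F at -0.58 and RPA1 at -0.52. Genes with an upward difference were ATOH8 at 1.40, TMEM133 at 1.16, ARHGAP42 at 1.06, LINC02981 at 1.04, BLVRB at 1.00, RBM47 at 0.86, SMAD9 at 0.85, COL8A1 at 0.80, ATP6V0D1 at 0.79, IFI6 at 0.74 and ATP6V1H at 0.59. KIF18A and RPA1 did not pass with 30 subtracted from every intensity, nor DCAKD and ATP6V1H with _x_at and _s_at probe sets left out.

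The other 24 were lost in at least 1 refit, 22 of them without DMSO 48 h replicate 3. Of these, CSRP2 was at -0.60, ASNS at -0.67, TUBB2A at -0.58, POLA2 at -0.58, TIMELESS at -0.37, E2F7 at -0.61, SKA1 at -0.44, CDK1 at -0.34, CHEK1 at -0.35, PDIA4 at -0.46, DNAJB6 at -0.68, GPX1 at -0.52, BNIP3L at -0.74 and AANAT at -1.08. The upward ones were C6orf141 at 1.44, SALL1 at 1.03, PARD3B at 0.95, S100A10 at 1.04, SYNPR at 1.55, ZMAT3 at 0.39, SEMA3F at 0.50, NEUROD4 at 0.50, PDE6H at 0.63 and FLT1 at 1.22. SYNPR had the largest upward value of the 50 and lost its call in 8 of 12 refits (adjusted p up to 0.0832); CDK1 lost its call in all 12 (adjusted p up to 0.0931).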

How the results depend on the processing

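The direction of the comparison held under the alternatives tried, with 35.0% to 43.6% of the called genes higher at 48 h against 38.5% as reported. Leaving out 1 array gave 1259 to 2048 genes, 481 to 786 higher and 778 to 1262 lower, and 2360 to 3967 probe sets against 3926; the lowest counts came without entinostat 24 h replicate 2. The same refits gave 0 to 166 genes in DMSO (none in limma without DMSO 48 h replicate 3, where 2054 had an unadjusted p under 0.05 against 2597 with all arrays) and 123 to 285 interactions. With 30 subtracted before log2 there were 1265 genes (469 higher, 796 lower), 2506 probe sets, 7 genes in DMSO and 76 interactions. An adjusted p under 0.01 gave 851 (323 and 528), 1554, 4 and 67, and a log2 fold change of at least 0.5 as well 413 (184 and 229), 786, 28 and 236. With dim probe sets left out DMSO had 259 genes and the interaction 638; the probe set with the largest moderated t gave DMSO 147, and DMSO arrays fitted alone gave 0, with 2519 at an unadjusted p under 0.05.

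Same-numbered arrays of 24 and 48 h deviated together with r = 0.19, 0.04 and 0.11 in entinostat, and with r = 0.11, 0.11 and 0.18 in DMSO. Between the arms r was 0.10, 0.31 and 0.27 at 24 h and 0.20, 0.12 and -0.06 at 48 h. Differently numbered entinostat arrays of 24 and 48 h had r from -0.18 to 0.09. The main fit took the numbers as unpaired, but the low r of same-numbered arrays does not settle whether they are pairs. With the replicate block 838 genes were higher and 1337 lower in entinostat, 156 passed in DMSO and 410 interactions passed; PARP2 then passed and DCAKD did not; with the block in the entinostat arrays alone, an alternative chosen after seeing the data, 1002 passed (377 higher, 625 lower; 1913 probe sets), and DHRS2, MYBL2, ANLN, CCNB2, CDK1, SYT1, HES4, BMPR1B, PKM and DCAKD did not. Among the named genes only ASNS (0.040) and ATP6V1H (-0.043) turned direction, both with _x_at and _s_at probe sets left out. With 30 subtracted SYNPR, NEFM, PCDH17, FLT1 and DCAKD did not pass. The causes were not tested. The number of arrays and the background left in dim values limit the precision. In simulated data a log2 change of 0.25 was recovered for 8 of 50 probe sets. These were drawn from probe sets with a mean log2 of at least 7, so recovery of dim ones was not tested.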

Other observations

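The probe sets without a gene symbol showed a different balance from those that represent a gene. Of 11721 probe sets with no symbol, 201 rose and 97 fell from 24 to 48 h of entinostat (1.71% and 0.828%), while 783 and 1253 of the 19775 that represent a gene did (3.96% and 6.34%). Of the 21316 other probe sets of genes with a symbol, 767 rose and 660 fell (3.60% and 3.10%), and of 1801 with several symbols 58 rose and 107 fell (3.22% and 5.94%). Over all 54613 probe sets 1809 rose (3.31%) and 2117 fell (3.88%). The probe set that represents a gene is its brightest, and brightness differs between these classes; its part in the balance was not tested.

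The 10 WNT medulloblastoma markers, which do not belong to the type of the line, had a summed intensity of 1612 to 2319 in the arrays of 24 h and of 1252 to 1262 in those of 48 h. Of the 10, 3 had a mean log2 of at least 7 and 1 passed the test. The sums of the SHH markers were 2108 to 2616 and then 1906 to 2155, those of the Group 4 markers 1278 to 1570 and then 1252 to 1397, and those of astrocyte and oligodendrocyte markers 832 to 892 and then 868 to 900; for these 3 lists 0 of 9, 1 of 10 and 1 of 9 members passed.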
